A study of Mus musculus with 3 samples.

Results

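Collagen hydroxylases and lysyl oxidases are the enzymes that modify collagen chains inside the cell and then crosslink the secreted fibers. The 10 genes described here were chosen by gene name as the lysyl oxidases Lox, Loxl1, Loxl2, Loxl3 and Loxl4, the lysyl hydroxylases Plod1, Plod2 and Plod3, and the prolyl 4-hydroxylase alpha subunits P4ha1 and P4ha2. All 10 were found among the 43472 rows of the expression table. RNA sequencing had been performed on primary fibroblasts from the tail tips of C57BL/6 mice, which were scratched in culture as an in vitro wound and then received the soluble micrograft (MG), a cell-depleted extract of mouse skin, together with the MEK inhibitor PD0325901 for 5 h. This MG + PD0325901 condition was sequenced in 3 biological replicates, and every library carried both agents. No sample without PD0325901 was analysed here, so levels, their order and their spread are given and no effect of MG or of PD0325901. The cells were grown out of a whole collagenase digest with no sort described, and the sources used here do not give the number of mice or say whether mice were pooled.

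The enzymes act in sequence on the same chains. In the endoplasmic reticulum, prolyl 4-hydroxylases turn prolines into hydroxyproline, which holds the triple helix together at body temperature, and lysyl hydroxylases turn lysines into hydroxylysine, the site of sugar attachment and of the most stable crosslinks. Both need iron, 2-oxoglutarate and ascorbate. After secretion and trimming of procollagen, the copper-dependent lysyl oxidases convert lysines and hydroxylysines of collagen and elastin into aldehydes that condense into crosslinks, the reaction that gives a healing wound its tensile strength.

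The feature that defines a lysyl oxidase is the stretch of the catalytic domain that binds copper, and its coding sequence is shown for the 4 Lox-like genes because their catalysis depends on it. Each line gives the 33 coding bases 5′ to 3′ of the coding strand, and capitals mark the codons of the 3 histidines in the pattern His-X-His-X-His that hold the metal. The sequences were read from the GENCODE M21 transcripts of GRCm38, and each coordinate span includes the intron that interrupts the site. The site of Loxl1 lies in exons 3 and 4 of 7 (chr9:58293720-58294381, minus strand), that of Loxl2 in exons 10 and 11 of 14 (chr14:69682316-69689037, plus strand), that of Loxl3 in exons 10 and 11 of 14 (chr6:83049995-83050125, plus strand) and that of Loxl4 in exons 11 and 12 of 15 (chr19:42598807-42599899, minus strand).
Loxl1: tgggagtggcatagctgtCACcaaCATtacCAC
Loxl2: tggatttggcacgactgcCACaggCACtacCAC
Loxl3: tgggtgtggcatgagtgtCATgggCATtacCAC
Loxl4: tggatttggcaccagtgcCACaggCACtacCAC
Loxl2 and Loxl4 shared 31 of the 33 bases, whereas Loxl1 shared 22 with Loxl2 and 21 with Loxl4. The exon junction fell after base 23 of the site in all 5 lysyl oxidase genes, Lox included.

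Translated from the same transcripts, the family fell into a pair and a trio. From the copper site to the C-terminus, Lox and Loxl1 were identical at 76.5% of aligned residues, while Lox and the other 3 shared between 52.7% and 57.3%. Over the same stretch Loxl2, Loxl3 and Loxl4, whose N-terminal part is built of scavenger receptor repeats, shared 65.1% to 71.2% with each other. Over their whole length these 3 shared 55.7% to 56.4% of aligned residues. The 3 lysyl hydroxylases were 58.3% to 60.5% identical to each other, and P4ha1 and P4ha2 were 63.5% identical over 531 aligned residues.

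All 10 genes were expressed in every library, and Lox stood far above the rest. It had 123161, 87374 and 99744 normalized counts in replicates 1, 2 and 3 (mean 103426 ± 18175, SD, n = 3), where a normalized count is the number of reads on the gene divided by the size factor of its library. Replicate 1 was the highest and replicate 2 the lowest, 1.41-fold apart. Lox ranked 9 among all genes by mean normalized count and 25 per kilobase among 11639 detected genes with a known length, and it took 0.629%, 0.459% and 0.488% of all reads on genes in replicates 1, 2 and 3. The gene lies on chromosome 18 of GRCm38 (52516067-52529867, minus strand) and encodes the founding member of the family, which acts on both fibrillar collagen and elastin.

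Loxl2, whose product crosslinks fibrillar and basement membrane collagens, was the second lysyl oxidase and had the narrowest spread of the 10 genes. Its normalized counts were 26559, 23770 and 28889 in replicates 1, 2 and 3 (26406 ± 2563), a highest-to-lowest ratio of 1.22. It lies at chr14:69609068-69695834 on the plus strand.

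Loxl1, the family member that maintains elastic fibers, was the gene on which the libraries differed most. It had 3030, 8468 and 2921 normalized counts in replicates 1, 2 and 3 (4806 ± 3172), so that replicates 1 and 3 lay close together and replicate 2 was 2.90-fold above the lowest. Without replicate 2 the mean of Loxl1 was 2975. The gene lies at chr9:58287738-58313186 on the minus strand.

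Loxl3 was near Loxl1 in normalized counts and Loxl4 was the lowest of the family. Loxl3, a crosslinking enzyme needed for the palate and the spine in development, had 3855, 6966 and 4386 normalized counts in replicates 1, 2 and 3 (5069 ± 1664), again highest in replicate 2. Loxl4, which has the same domain plan as Loxl2 and Loxl3, had 729, 1335 and 1220 normalized counts (1095 ± 321), the lowest level of the 10 genes in every library, with replicate 1 below the other two. They lie at chr6:83034173-83052562 on the plus strand and chr19:42593982-42612813 on the minus strand.

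**Figure D1:**
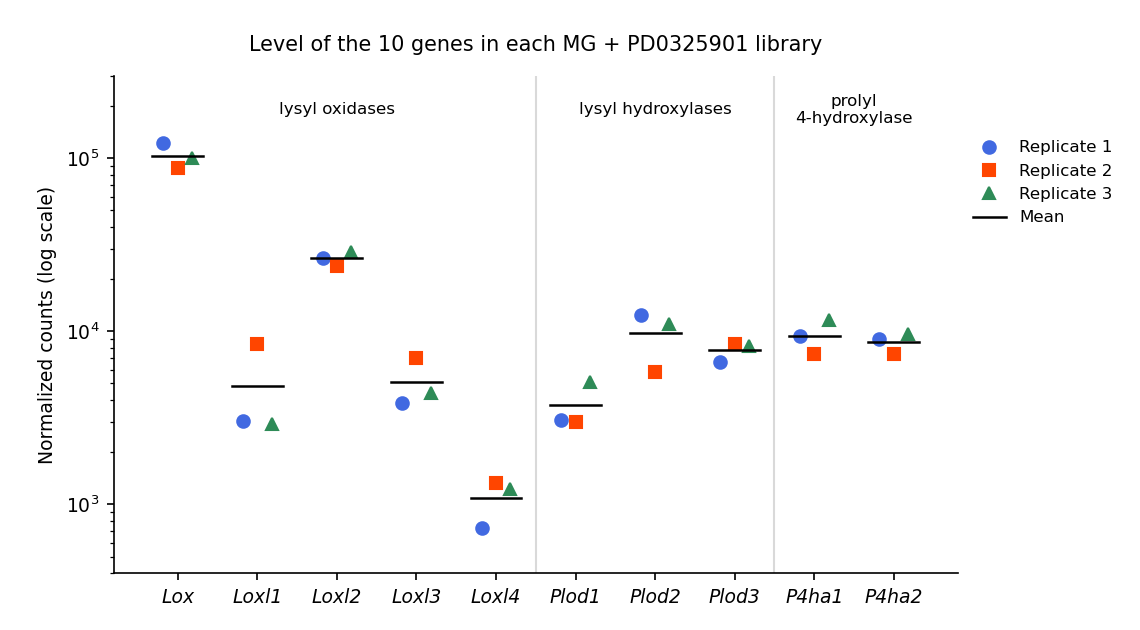
Normalized counts (y axis, log scale) of the 10 genes (x axis, grouped by enzyme family) in the 3 MG + PD0325901 libraries, with 1 point per library and a black bar at the mean. Lox lies between 87374 and 123161 in the 3 libraries and Loxl4 between 729 and 1335, while replicate 2 stands above the others for Loxl1 and below them for Plod2.

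Among the lysyl hydroxylases, Plod2 was highest on average but not in every library. The Plod2 product hydroxylates the telopeptide lysines at the ends of the collagen molecule, the step that sets the type of crosslink and is raised in fibrosis. Plod2 had 12376, 5839 and 10952 normalized counts in replicates 1, 2 and 3 (9722 ± 3438), with replicate 2 at the bottom of a 2.12-fold range. Plod3, which encodes an enzyme that both hydroxylates lysine and adds the sugars, had 6646, 8426 and 8277 (7783 ± 987), and there replicate 1 was the lowest. Plod1, which encodes the hydroxylase of lysines within the helix, had 3090, 2983 and 5110 (3727 ± 1198), with replicate 3 above a pair of nearly equal libraries. Plod1 lies at chr4:147909753-147936767 on the minus strand, Plod2 at chr9:92542223-92608428 on the plus strand and Plod3 at chr5:136987019-136996648 on the plus strand.

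The catalytic alpha subunits of prolyl 4-hydroxylase were nearly level with each other. P4ha1 measured 9387, 7393 and 11585 normalized counts in replicates 1, 2 and 3 (9455 ± 2097), and P4ha2 had 9025, 7350 and 9700 (8692 ± 1210). Both were lowest in replicate 2 and highest in replicate 3. They lie at chr10:59323296-59373304 and chr11:54100095-54131665, both on the plus strand.

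Counting error was small beside these differences between libraries. In the library with the fewest reads for a gene it came to between 0.345% of the value for Lox and 3.45% for Loxl4, and it covers counting only, since no molecular identifiers were used. Libraries held 17244505 to 27037783 reads on genes. A count of 0 would allow up to 3 reads, or 2.11 to 3.56 normalized counts.

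Because longer transcripts collect more reads, levels were compared between genes as normalized counts per kilobase of exon. Lox was first with 21646 ± 3804 (SD, n = 3), 4.43-fold above Loxl2 with 4885 ± 474, and Loxl2 was 2.13-fold above P4ha1 with 2298 ± 510. Next came Plod2 with 1803 ± 638, Plod3 with 1722 ± 218, Loxl1 with 1458 ± 962, P4ha2 with 1393 ± 194 and Loxl3 with 1101 ± 361. Plod1 with 551 ± 177 and Loxl4 with 260 ± 76.3 closed the order. The ranges of the 3 libraries did not overlap between Lox and Loxl2, Loxl2 and P4ha1, Loxl3 and Plod1, or Plod1 and Loxl4. The 5 steps from P4ha1 to Loxl3 all had overlapping ranges, and the order held in only 1 or 2 of the 3 libraries at each of them. Of the 15 pairs that these middle 6 genes form, 13 had overlapping ranges, while P4ha1 lay above both P4ha2 and Loxl3 in all 3 libraries without overlap. An exact permutation test of 3 libraries against 3 cannot give a p below 0.10. Lox, Loxl2, Plod1 and Loxl4 kept ranks 1, 2, 9 and 10 in each library, while Loxl1 ranked 7, 3 and 8 and Plod2 ranked 3, 8 and 4 in replicates 1, 2 and 3. Per kilobase of coding sequence P4ha2 moved from rank 7 to rank 4, next to P4ha1.

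**Figure D2:**
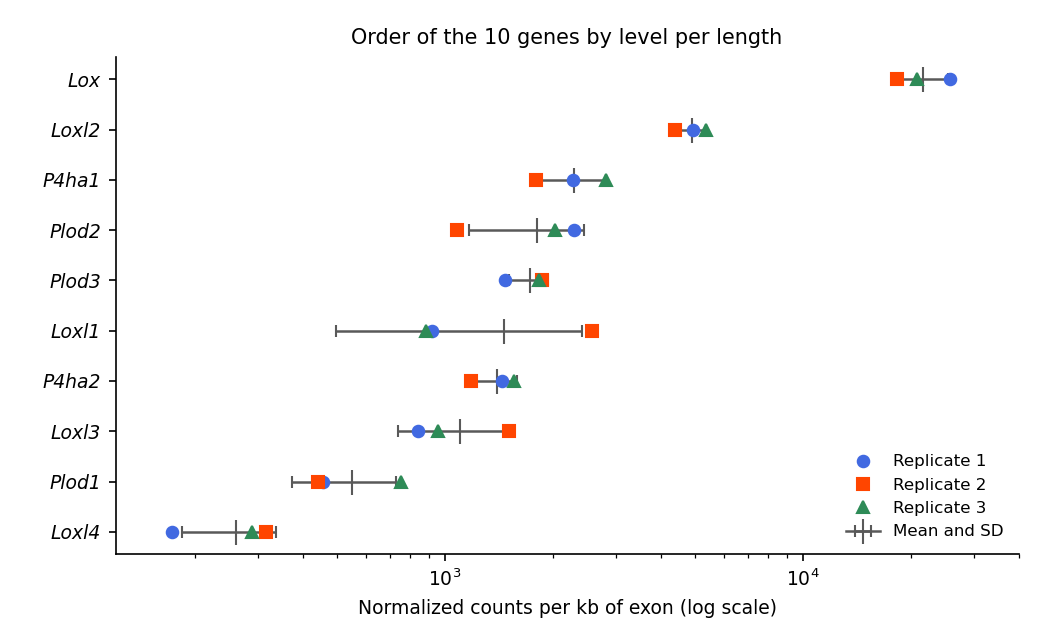
Normalized counts per kilobase of exon (x axis, log scale) of the 10 genes in the order of their means (y axis), with points for the 3 libraries and a line for the mean and SD. Lox at 21646 and Loxl2 at 4885 stand clear of the rest, and Plod1 at 551 and Loxl4 at 260 lie below. Each of the 6 genes between Loxl2 and Plod1 overlaps its next neighbours within those 6.

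The composition of each family followed from these levels. Lox made up 79.0%, 67.5% and 73.6% of the lysyl oxidase transcripts per kilobase in replicates 1, 2 and 3, and Loxl2 made up 15.1%, 16.2% and 18.9%. Loxl1 held 2.82%, 9.48% and 3.12%, so replicate 2 had the lowest share of Lox and the highest of Loxl1. In the lysyl hydroxylase family Plod2 led in replicates 1 and 3, with 54.4% and 44.0%, but Plod3 led in replicate 2, with 55.0% against 32.0% for Plod2. Plod1 made up 10.8%, 13.0% and 16.4%. P4ha1 made up 61.2%, 60.4% and 64.4% of the sum of P4ha1 and P4ha2, the steadiest of the 3 compositions. By coding length the mean share of P4ha1 was 52.0%, so its lead over P4ha2 depended on the length used.

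**Figure D3:**
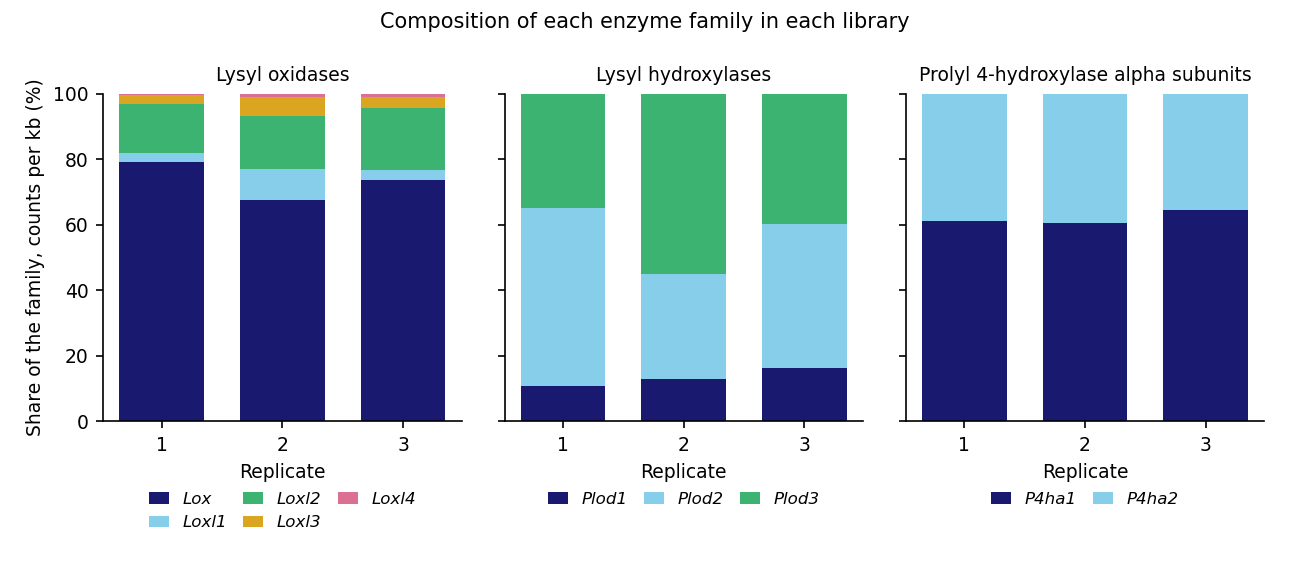
Share of each gene in the summed normalized counts per kilobase of its family (y axis, percent) in each library (x axis), in 1 panel per family. Lox takes 67.5% to 79.0% of the lysyl oxidases, and the leading lysyl hydroxylase is Plod3 in replicate 2 and Plod2 in the other libraries.

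Ratios within a library do not depend on its size factor, and they gave the same picture. On the log2 scale, the ratio of P4ha2 to P4ha1 per kilobase was -0.71 ± 0.13 (SD, n = 3), with a range of 1.19-fold over the libraries, and that of Loxl2 to Lox was -2.14 ± 0.22. The ratio of Loxl1 to Lox was -4.07 ± 1.08 and ranged 3.94-fold. That of Plod2 to Plod1 was 1.68 ± 0.56, and that of Plod3 to Plod1 was also 1.68, with an SD of 0.40. The ratio of Plod2 to Plod3 changed sign, at 0.64, -0.78 and 0.15 in replicates 1, 2 and 3. Loxl1 and Plod2 were the farthest apart of all pairs of the 10 genes in their profile over the libraries, and their ratio per kilobase was 0.400, 2.37 and 0.436, which is 5.92-fold from lowest to highest. The ratios of Plod2 to Plod3 and of Loxl1 to Plod2 were chosen after the values were seen.

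Each pair of libraries was compared by a two-sided exact binomial test on the reads of each gene, with Benjamini-Hochberg adjustment over all genes tested. These tests compare libraries and not conditions, and they cover counting error only. Between replicates 1 and 2, 9 of the 10 genes differed, against 69.1% of all genes tested and 83.6% of the highly expressed genes, those that like all 10 reached 500 normalized counts in each library. Between replicates 1 and 3 and between replicates 2 and 3 it was again 9 of 10, against 52.0% and 62.6% of all genes and 70.4% and 78.6% of the highly expressed genes. The gene that did not pass was Plod1 in the first pair (1.04-fold, adjusted p = 0.159 in the exact binomial test), Loxl1 in the second (1.04-fold, adjusted p = 0.243) and Plod3 in the third (1.02-fold, adjusted p = 0.306). At this depth most highly expressed genes passed, so the size of the difference separates the genes better. A difference of more than 2-fold that also passed was seen for Loxl1 and Plod2 between replicates 1 and 2. It was seen for none of the 10 between replicates 1 and 3, and for Loxl1 between replicates 2 and 3. In the same order of pairs, 20.3%, 9.27% and 16.4% of all genes tested differed in this way. Of the 5397 highly expressed genes, the closer background for the 10, only 379, 50 and 243 did.

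Loxl1 was also the sole gene of the 10 in which 1 library lay more than 2-fold from both others. This was replicate 2, in which 10.1% of 13154 genes whose mean reached 10 stood apart in this way, or 2.78% of the highly expressed genes. None of the 10 stood apart in replicate 1 or replicate 3, where 4.26% and 3.58% of all genes did, but only 0.389% and 0.241% of the highly expressed genes. With a limit of 1.5-fold, Loxl1, Loxl3 and Plod2 stood apart in replicate 2, Loxl4 in replicate 1 and Plod1 in replicate 3. The lowest library was replicate 2 for 6 of the 10 genes, against 37.3% of detected genes, and the highest for 4, against 40.6%. Replicate 3 was the highest for 4, against 27.9%.

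The spread of the 10 genes over the replicates was uneven. The SD of log2(normalized count + 1) ran from 0.14 for Loxl2 to 0.87 for Loxl1, with a median of 0.38, against medians of 0.30 over 12204 detected genes, which had 10 or more normalized counts in each library, and 0.24 over the 5397 highly expressed genes. The SD of Loxl1 lay at percentile 93.2 of the detected genes and 98.6 of the highly expressed ones, and that of Plod2 at percentiles 82.3 and 93.6. The highest library was more than 2-fold above the lowest for these 2 of the 10, against 22.0% of detected genes and 9.06% of the highly expressed ones. The biological coefficient of variation from edgeR estimates the spread between replicates beyond counting. Each gene's value is drawn toward the trend over all genes, so it is not the plain spread of that gene. It was 40.4% for Loxl1, 31.4% for Plod2 and 25.0% for Lox, where the trend gave 26.5%, 26.9% and 27.6%. The SD of the normalized counts was 66.0%, 35.4% and 17.6% of the mean for these 3 genes. Without replicate 2 the median SD of the 10 genes was 0.17.

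**Figure D4:**
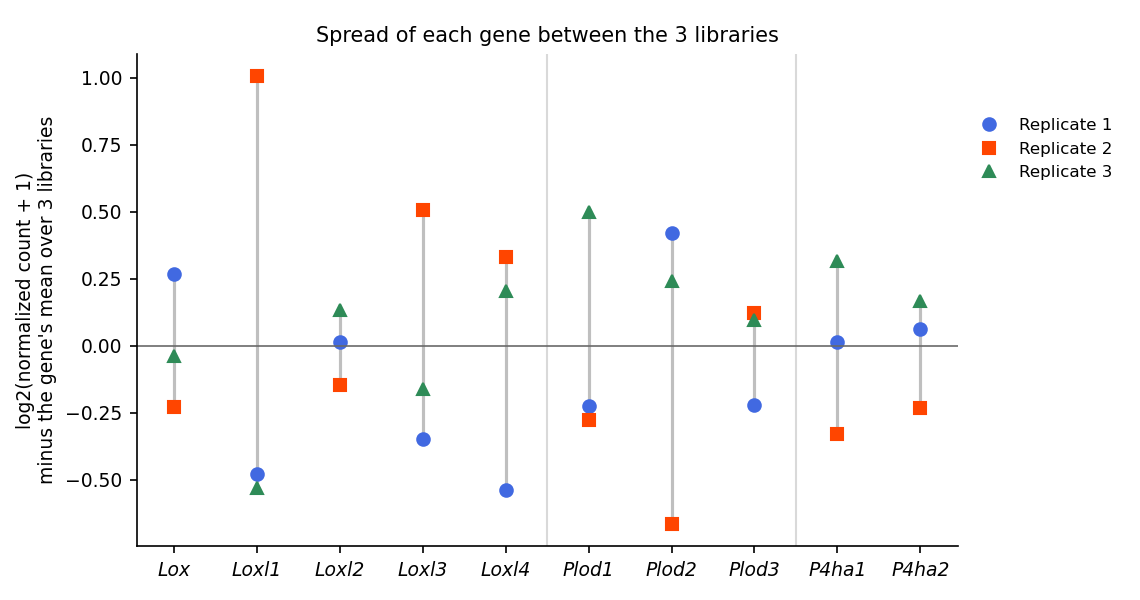
Deviation of each library from the gene's mean over the 3 libraries, in log2(normalized count + 1) (y axis), for the 10 genes (x axis), with the grey line spanning the range. The longest lines are those of Loxl1, with a highest-to-lowest ratio of 2.90, and Plod2, with 2.12, both set by replicate 2 in opposite directions.

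Replicate 2 also stood apart in marker genes of cell types. The summed level of 5 tendon markers was 14980, 1492 and 14813 normalized counts in replicates 1, 2 and 3. Of the 5, 4 were more than 2-fold apart in replicate 2, where 10.1% of all genes tested were. Among the 4 was Fmod with 9346, 762 and 10075, whereas Tnmd, with 124, 127 and 107, did not stand apart. All 9 fibroblast markers were detected, and 3 of them stood apart in replicate 2. Thy1 was high there (2031, 15760 and 1652), while Dcn (3661, 1723 and 3659) and Lum (5073, 289 and 1164) were low. Of 5 cartilage markers 2 were detected, and their sum of 11721, 390 and 993 was mostly that of Col2a1. Lum and Col2a1 stood apart in replicate 1 as well. The markers that stood apart in replicate 2 did so in the library with high Loxl1 and Loxl3 and low Plod2. Their part in those values was not tested. In bulk RNA, fewer cells of a type and less RNA per cell cannot be told apart. None of 5 leukocyte, 4 endothelial and 4 bone markers was detected in every library. Their summed levels ran from 14.1 to 68.7, from 5.93 to 190 and from 7.11 to 18.3, the endothelial one mostly Tek with 185 in replicate 2. Of 5 keratinocyte markers 1 was detected, Krt10, and their sum ran from 34.4 to 81.6. Of 5 skeletal muscle markers 2 were detected, Acta1 (2429, 7286 and 5586) and Des (212, 1208 and 77.0), and Myod1 had no reads. The summed levels of 2641, 8494 and 5664 were mostly those of Acta1. Acta1 stood apart in replicate 1 and Des in replicates 2 and 3.

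For the 2 genes with the widest ranges, the genes with the closest profiles were sought among 9989 genes whose mean reached 100. The measure was the distance between log2(normalized count + 1) values centred on each gene's mean over the 3 libraries. Closest to Loxl1 were Plcb4, a phospholipase C (189, 519 and 185 normalized counts, distance 0.0377), Ddah2, an enzyme of methylarginine breakdown (550, 1489 and 511, distance 0.0407), and Serinc2 (160, 456 and 148, distance 0.0576). Closest to Plod2 were Tspan7, a tetraspanin (447, 211 and 402, distance 0.0177), B3gntl1, a glycosyltransferase-like gene (132, 62.0 and 115, distance 0.0201), and Smdt1, a subunit of the mitochondrial calcium uniporter (2676, 1279 and 2424, distance 0.0238). Within a distance of 0.1 there were 12 genes for Loxl1 and 66 for Plod2. Over 3 libraries such likeness is easily met. Among the 10 genes themselves the closest pair was Loxl2 and P4ha2, at a distance of 0.105, followed by P4ha1 and P4ha2 at 0.186.

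The promoters of P4ha1 and P4ha2 are shown as the 250 bases before the RefSeq transcript start in GRCm38.p6 on the plus strand. Whether these sequences play a part in the levels of the genes was not tested. Capitals mark matches, on either strand, to GGGCGG (a GC box) and to ACGTG. The latter is a form of the core of hypoxia-responsive elements and is also contained in the E-box CACGTG. Other forms of that core, such as GCGTG, were not searched for or marked. The promoter of P4ha1 is chr10:59323046-59323295 and that of P4ha2 is chr11:54100674-54100923. The RefSeq start of P4ha2 lies inside the GENCODE span of the gene, which begins upstream at 54100095, so its motif distances hold for the RefSeq start and not for the GENCODE one.
P4ha1: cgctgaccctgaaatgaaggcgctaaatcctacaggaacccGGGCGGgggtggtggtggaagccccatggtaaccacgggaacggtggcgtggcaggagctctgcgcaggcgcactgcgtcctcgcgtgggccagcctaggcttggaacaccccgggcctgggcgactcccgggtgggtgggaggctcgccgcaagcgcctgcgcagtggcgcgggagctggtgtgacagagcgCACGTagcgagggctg
P4ha2: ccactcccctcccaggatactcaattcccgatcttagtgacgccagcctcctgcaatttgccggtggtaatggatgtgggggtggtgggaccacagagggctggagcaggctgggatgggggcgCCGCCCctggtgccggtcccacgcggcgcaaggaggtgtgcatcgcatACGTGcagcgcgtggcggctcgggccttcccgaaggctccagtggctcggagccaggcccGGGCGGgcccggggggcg
ACGTG was found 1 time in each, 16 bases before the start in P4ha1 and 78 bases before it in P4ha2, and GGGCGG was found 1 time in P4ha1 and 2 times in P4ha2. Among 32851 promoters of the same length, 16.6% held ACGTG and 32.7% held GGGCGG. Promoters were given for 5 of the 10 genes. ACGTG was also in that of Plod3, 54 bases before the start, and not in those of Plod1 and Loxl4. The AP-1 site TGACTCA or TGAGTCA, present in 4.46% of all promoters, was in none of the 5 windows. TATAAA, in 12.4% of promoters, was found in Plod1 alone of the 5, and CCAAT, in 33.8%, in Plod3 alone.

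The alpha subunits work in a tetramer with the beta subunit P4hb, also known as protein disulfide isomerase. P4hb had 40400, 32689 and 47861 normalized counts in replicates 1, 2 and 3, again lowest in replicate 2 and highest in replicate 3. The sum of P4ha1, P4ha2 and the minor subunit P4ha3 was 46.7%, 46.3% and 45.4% of P4hb, a range of 1.03-fold, while P4hb alone ranged 1.46-fold. This ratio was formed after the values were seen and is given as a description. The 8 other prolyl hydroxylases and partners, which include the prolyl 3-hydroxylase complex, were all detected. Of them, 6 were lowest in replicate 2, against 37.3% of detected genes, and 1 had a range above 2-fold, against 22.0%. Next to P4hb the highest were Ppib, the cyclophilin that folds procollagen (8239, 6426 and 8984), P3h4 (4667, 4679 and 6149) and Crtap (4628, 3045 and 3998). The gene with the wide range was P3h2 (60.8, 47.9 and 133), which stood apart in replicate 3.

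Genes that assist the lysyl hydroxylases varied about as much as detected genes in general. Of 7 collagen glycosyltransferases and procollagen chaperones 6 were detected, none had a range above 2-fold, against 22.0% of detected genes, and the median SD of 0.28 was close to the 0.30 of detected genes. Serpinh1, the collagen chaperone HSP47, had 39670, 39992 and 42390 normalized counts in replicates 1, 2 and 3. Fkbp10, whose product binds the Plod2 enzyme, had 15231, 12258 and 19051, and Colgalt1, which adds galactose to hydroxylysine, had 7041, 6408 and 8098. Like Plod2, 5 of the 6 were lowest in replicate 2, against 37.3% of detected genes, but over narrower ranges.

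Among genes whose products activate lysyl oxidases or trim procollagen, 9 of 10 were detected. A range above 2-fold was seen for 6 of the 9, against 22.0% of detected genes, and the median SD was 0.83, against 0.30, with several of the 6 at low levels. Bmp1, the protease that releases active Lox from its precursor, measured 4593, 9800 and 5015 normalized counts in replicates 1, 2 and 3, and so was highest in the library with the most Loxl1. Fn1, the fibronectin on which Lox is processed, had 136151, 118311 and 232677, and Pcolce, the enhancer of procollagen C-proteinase, had 9577, 11105 and 12466. Those that stood apart in replicate 2 were Adamts14 (218, 820 and 196), Postn (482, 1735 and 111), Tll1 (52.1, 135 and 13.0) and Pcolce2 (208, 34.5 and 409), the last in the opposite direction. Postn, periostin, carries Bmp1 to its substrates, and it and Tll1 stood apart in replicate 3 as well. Adamts3 (14.8, 47.2 and 34.4) stood apart in replicate 1.

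Copper and ascorbate supply, on which the enzymes depend, was represented by 5 genes, of which 4 were detected. Atp7a, the pump that loads copper onto secreted enzymes, measured 42.5, 242 and 119 normalized counts in replicates 1, 2 and 3, and it stood apart in both replicate 1 and replicate 2. The copper importer Slc31a1 had 1068, 1029 and 1144, the copper chaperone Atox1 had 2665, 1733 and 2625, and the ascorbate transporter Slc23a2 had 1353, 1225 and 1561, all within 2-fold. Of 5 procollagen export genes 4 were detected and none varied more than 2-fold. Sec23a had 4613, 4935 and 3939, and Mia3, the receptor that loads procollagen into carriers, had 2042, 2221 and 2244.

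The substrates were abundant. The 9 fibrillar collagen genes summed to 435960, 448222 and 668954 normalized counts in replicates 1, 2 and 3, with Col1a1 at 157553, 154124 and 246175. Summed lysyl oxidases equalled 36.1%, 28.5% and 20.5% of that sum, summed lysyl hydroxylases 5.07%, 3.85% and 3.64%, and P4ha1 with P4ha2 4.22%, 3.29% and 3.18%. These are ratios of normalized counts not divided by length, so they are not proportions of transcripts. Replicate 1 had the highest ratio of enzyme to collagen counts in all 3 families, and replicate 3 the lowest. For the lysyl oxidases this order rested on Lox, as without it the percentages were 7.84%, 9.04% and 5.59%, highest in replicate 2. The enzyme sums differed less, with ranges of 1.23-fold for the lysyl oxidases, 1.41-fold for the lysyl hydroxylases and 1.44-fold for the prolyl 4-hydroxylase subunits, against 1.53-fold for the collagens. Among the collagens, Col11a1 (1835, 415 and 3514) stood apart in replicate 2 and Col2a1 (11538, 229 and 833) in replicates 1 and 2. Elastin, Eln, had only 6.95, 45.1 and 129, so the main elastic substrate of Lox and Loxl1 was scarce beside the collagens in every library.

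**Figure D5:**
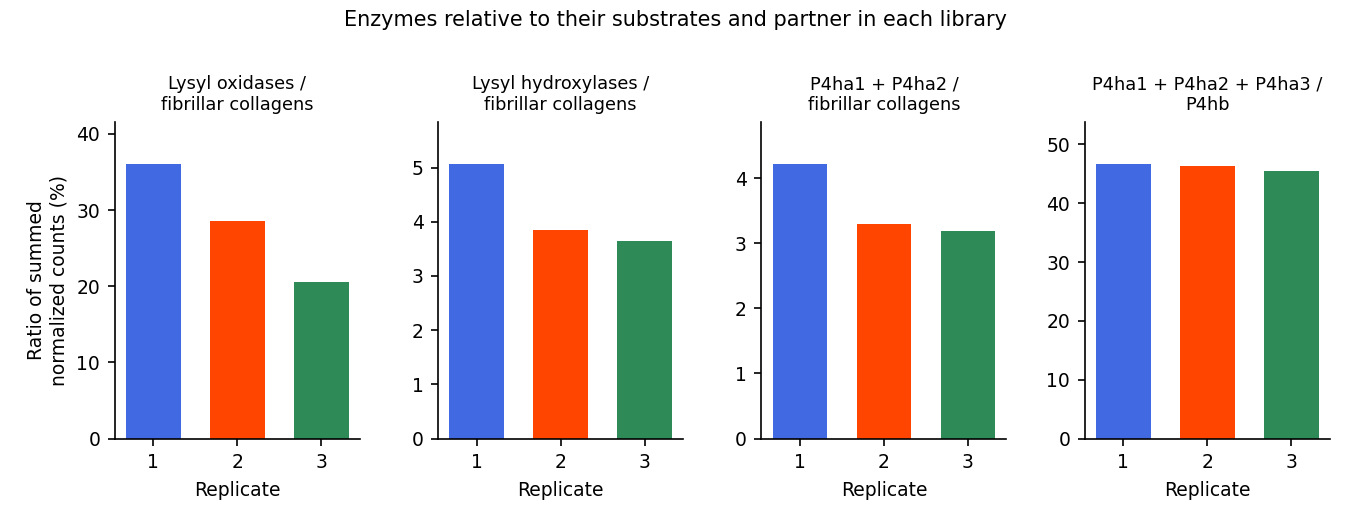
Ratios of summed normalized counts (y axis, percent, a separate scale in each panel) in each library (x axis) for the 3 enzyme families over the fibrillar collagens and for the prolyl 4-hydroxylase alpha subunits over P4hb. The ratios to collagen are highest in replicate 1, with the lysyl oxidases going from 36.1% in replicate 1 to 20.5% in replicate 3, while the ratio to P4hb stays between 45.4% and 46.7%.

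Partners of the lysyl oxidases in elastic fibers were nonetheless present. Of 5 genes 4 were detected, and all 4 were highest in replicate 2, as were 40.6% of detected genes and Loxl1. Fbn1, the main protein of microfibrils, measured 9241, 32899 and 15624 normalized counts in replicates 1, 2 and 3 and stood apart in replicate 2. Fbn2 (239, 356 and 83.0) stood apart in replicate 3. Fbln5, the fibulin that tethers Loxl1, had 4346, 7390 and 6702. Efemp2, the fibulin that brings Lox to elastin, had 17201, 17918 and 17794, a range of only 1.04-fold.

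Plod2, P4ha1, P4ha2 and Lox are well-known targets of the hypoxia-inducible factors, so 12 hypoxia-responsive genes were set beside them. All 12 were detected. Of them, 6 were lowest in replicate 2, against 37.3% of detected genes, and 6 were highest in replicate 3, against 27.9%. The median SD was 0.28, against 0.30 over all detected genes. Ldha had 33514, 42800 and 48796 normalized counts in replicates 1, 2 and 3, Pgk1 had 6513, 8635 and 10507, Slc2a1 had 6915, 4775 and 9221, and Vegfa had 6667, 6449 and 4631. Ldha and Pgk1 thus did not share the low replicate 2 of Plod2, whereas Slc2a1 did. The 2 genes with a range above 2-fold were Ndrg1 (2541, 1303 and 3088) and Car9 (109, 64.1 and 191), both lowest in replicate 2 and named after their values were seen.

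Some reads could be shared with overlapping genes. In GENCODE M21, Loxl3 shares 535 exonic bases with Htra2 on the opposite strand, and Plod3 shares 529 with Znhit1. Htra2 measured 1216, 1106 and 1121 normalized counts in replicates 1, 2 and 3, and Znhit1 had 997, 574 and 1042. The libraries were stranded, but whether strand was used in counting is not given in the sources used here, so reads in these stretches may be split or lost. The high Loxl3 of replicate 2 had no counterpart in Htra2.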

How the data were processed

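RNA sequencing of 3 libraries from MG + PD0325901-treated wounded mouse fibroblasts was analysed. Per the labels and the paper's methods, the authors aligned single-end reads from stranded mRNA libraries to mm10 with TopHat2 2.0.13 and counted them per gene with HTSeq 0.5.3p3. The gene annotation, the use of strand in counting and the set of libraries behind the size factors are not given in the sources used here. The deposited values (unit signal) are normalized counts: the authors divided each library's reads per gene by 1 DESeq size factor. In each library 100% of the values above 0 were whole multiples of 1 read to within 0.1 read, and reads were recovered by division (22540518, 27037783 and 17244505, with size factors of 1.15, 1.42 and 0.844 in replicates 1, 2 and 3). A further 3 columns of per-sample values could not be assigned to a sample and were not used.

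Means and SDs are those of normalized counts, and log2 values used a pseudocount of 1. Genes were called detected at 10 normalized counts in every library. Exact binomial tests between libraries covered genes with 10 or more reads in the 2 libraries together, at an adjusted p of 0.05. TMM factors and coefficients of variation were estimated with edgeR 4.0.16 (R 4.3.3), and Python 3.11.15 (scipy 1.17.1, pandas 2.3.3, biopython 1.88) was used for the rest. Positions, lengths and coding sequences came from GENCODE M21 (GRCm38, the build of mm10), with length taken as all exonic bases of a gene, and promoters from RefSeq.

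The 10 genes and the other lists were chosen with earlier results of these data known. Named were the 10 genes, up to 4 genes of each other list by mean level, any gene of those lists more than 2-fold apart in 1 library (cell type marker lists, which are given by counts and sums with examples chosen after their values were seen, are not included), and the 3 closest profiles to the 2 genes with the widest ranges. P3h1 to P3h4 were matched by older symbols. A further marker list is not reported here. Alternatives were TMM or equal-total scaling, other lengths, minimums, pseudocounts and fold limits, and each replicate left out. The background of genes with at least 500 normalized counts and the shares by coding length were chosen after seeing the data. Nothing states that the replicates came from separate mice or cultures beyond their label as biological replicates, so the spread between them may be partly technical.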

Additional observations from a re-analysis of the deposited data

How the results depend on the processing

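No paired analysis was possible because the series has a single condition, so no groups share replicate numbers. The mean levels of the 10 genes moved by less than 1 SD under TMM scaling or equal library totals. Leaving out 1 of 3 values cannot move a mean by 1 SD, so that limit says nothing about the settings without a replicate. Without replicate 2 the mean of Loxl1 was 2975 against 4806 normalized counts. Under TMM scaling, 10, 9 and 8 of the 10 genes differed between replicates 1 and 2, 1 and 3, and 2 and 3. With the authors' size factors it was 9 in each pair. Counts of genes that differed between libraries also depended on the size required. With more than 2-fold required, 2, 0 and 1 of the 10 genes and 2996, 1327 and 2358 of all genes remained called between replicates 1 and 2, 1 and 3, and 2 and 3. Genes apart in replicates 1, 2 and 3 numbered 560, 1325 and 471. They were 2140, 2791 and 1996 with no minimum, 169, 646 and 133 with a minimum mean of 100, and 1547, 3014 and 1160 with a limit of 1.5-fold, which also set apart 1, 3 and 1 of the 10 genes. A pseudocount of 10 gave 324 in replicate 1 and 258 in replicate 3. The median SD of the 10 genes was 0.17 to 0.37 with a replicate left out, and that of the detected genes 0.20 to 0.30, both lowest without replicate 2. It was 0.46 over all genes with a value above 0 in any library. The common coefficient of variation, 35.8%, was 24.0% without replicate 2 and 40.2% without replicate 3. The ranks of Plod2, Plod3, Loxl1 and P4ha2 per kilobase changed with coding length and with a replicate left out. P4ha1 and Loxl3 kept ranks 3 and 8 in those settings and moved only without division by length. The ranks of Lox, Loxl2, Plod1 and Loxl4 did not change in any of these settings. By coding length the mean share of Lox among the lysyl oxidases was 83.1% against 73.4%. Depth limits none of the 10 levels, since the lowest, Loxl4 in replicate 1, rests on far more reads than the 3 that a count of 0 allows.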
